A study of Homo sapiens with 8 samples.

Results

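S100 proteins are small calcium-binding proteins that work mostly as pairs inside the cell, where they bind annexins, myosins and other partners when calcium rises, and some are secreted and act on receptors of neighbouring cells. The 10 genes described here are S100A2, S100A4, S100A6, S100A8, S100A9, S100A10, S100A11, S100A14, S100A16 and S100P. A probe was taken for a gene when its RefSeq accession mapped to that symbol in the current gene table. This gave 11 probes of 41000 on the array, 1 for each gene except S100A11, which had 2, and 10 of the 32642 gene names on the array. The genes were chosen from the measured ratios of both populations over H460, so their values are given as a description and carry no test.

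The study compared the human non-small cell lung cancer line H460 with cancer stem cells derived from it (CSCs, called H460C) and with cisplatin-resistant H460 cells (H460R). H460 and H460R were grown in RPMI with foetal bovine serum. H460R cells had been exposed to cisplatin at 0.5 µg/mL for 72 h and were then kept without the drug, whereas H460C grew under non-adherent conditions in defined DMEM/F12 medium with N2 supplement, BSA, EGF and FGF-b. Each population gave 2 RNA replicates, and each replicate was hybridized against H460 RNA on 2 dual-color arrays with the dyes swapped, so that there were 4 arrays of H460C and 4 of H460R. Both populations came from the single line H460, and culture without serum and without adhesion cannot be told apart from the CSC state. Each population had a slide of its own, and its effect cannot be told apart from that of the slide. The labels give 1 H460 RNA for all 8 arrays.

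Between 25868 and 28499 probes per array were well above background in H460C, 26008 to 28446 in H460R and 22834 to 26966 in H460. The difference between the H460C replicates was not shared by the dye pairs (r = 0.015 across 24638 probes, which are not independent), against 0.26 for H460R across 25689 probes. The gap between the H460C replicates was thus under the sampling noise of hybridization, and their values are given as 1 sample, with no SD. The tests still took them as 2 ratios, so FDR and p for H460C cover hybridization and not the spread between cultures. Values of H460R are mean ± SD (n = 2). In such bulk RNA, fewer cells with a transcript and less of it in each cell cannot be told apart. A log2 ratio of 1 is a doubling over H460 and 0 is no difference. Of 8 epithelial cell markers, 7 passed the filter on dim probes. KRT8, KRT18 and KRT19, keratins of simple epithelia, were well above background in every channel. KRT7, another such keratin, did not pass. It was well above background in H460 on 4 H460C arrays and 1 H460R array, and on no array in H460C or H460R. KRT7 was thus at least 1.30-fold lower in H460C than in H460. CDH1 (E-cadherin) was well above background in H460C alone.

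S100A8 and S100A9 form calprotectin, the calcium- and zinc-binding complex known from neutrophils, monocytes and inflamed epithelium. They stood far above the other members in H460C and were near background in H460R. Because the results turn on this pair, the 250 bases before their RefSeq starts are shown in GRCh38.p14, with the same stretch of S100A12, calgranulin C, which lies between them on chromosome 1. For S100A8 the first of the 3 starts in the table was used. Capitals mark matches on either strand to 6 motifs: AP-1 (TGANTCA), C/EBP (TTGCNNAA), STAT (TTCNNNGAA), the TATA box (TATAAA), the SP1 GC box (GGGCGG) and NF-kB by its usual consensus.
S100A8 (chr1:153391189-153391438, minus strand): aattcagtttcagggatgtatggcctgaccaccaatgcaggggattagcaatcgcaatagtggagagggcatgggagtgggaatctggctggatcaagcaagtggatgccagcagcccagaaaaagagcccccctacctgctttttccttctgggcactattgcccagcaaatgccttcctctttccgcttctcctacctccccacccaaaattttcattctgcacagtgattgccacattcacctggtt
S100A9 (chr1:153357604-153357853, plus strand): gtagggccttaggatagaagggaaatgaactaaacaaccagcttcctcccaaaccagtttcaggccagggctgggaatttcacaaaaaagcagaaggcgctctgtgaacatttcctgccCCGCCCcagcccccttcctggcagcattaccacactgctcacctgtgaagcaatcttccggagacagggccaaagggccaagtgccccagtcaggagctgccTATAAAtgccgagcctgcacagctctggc
S100A12 (chr1:153375622-153375871, minus strand): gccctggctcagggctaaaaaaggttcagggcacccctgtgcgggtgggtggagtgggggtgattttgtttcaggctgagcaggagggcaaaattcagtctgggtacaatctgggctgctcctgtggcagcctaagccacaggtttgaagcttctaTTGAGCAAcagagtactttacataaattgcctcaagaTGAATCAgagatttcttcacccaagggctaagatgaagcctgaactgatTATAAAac
None of the 6 motifs was found in the S100A8 stretch, which says only that these letters are absent from this window. The S100A9 stretch held a TATA box 29 bases and a GC box 131 bases before the start. The S100A12 stretch held a C/EBP match at 94, an AP-1 match at 57 and a TATA box at 8 bases before the start. The marked matches did not overlap. Over the promoters of 27305 genes, 6.6% held an AP-1 match, 9.13% a C/EBP match, 6.78% a STAT match, 5.05% an NF-kB match, 11.1% a TATA box and 42.3% a GC box.

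S100A8 had raw median intensities of 7591 and 9128 for H460C in Cy3 and of 19179 and 21084 for H460C in Cy5. H460 RNA on the same arrays gave 122.5 and 151 in Cy5 and 86 and 78 in Cy3. On the H460R arrays, H460R gave 61 and 62 in Cy3 and 75 and 88 in Cy5, and H460 gave 50 to 78.5. Every H460C value lay far above every value of the other RNAs. S100A9 had 3385 and 3917 for H460C in Cy3 and 6215 and 6874 in Cy5. H460 on these arrays gave 295 and 337 in Cy5 and 81 and 96 in Cy3. H460R gave 44 to 70 and H460 beside it 43 to 72.5. The S100A9 signal of H460 was thus higher on the H460C arrays than on the H460R arrays in both dyes.

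**Figure D1:**
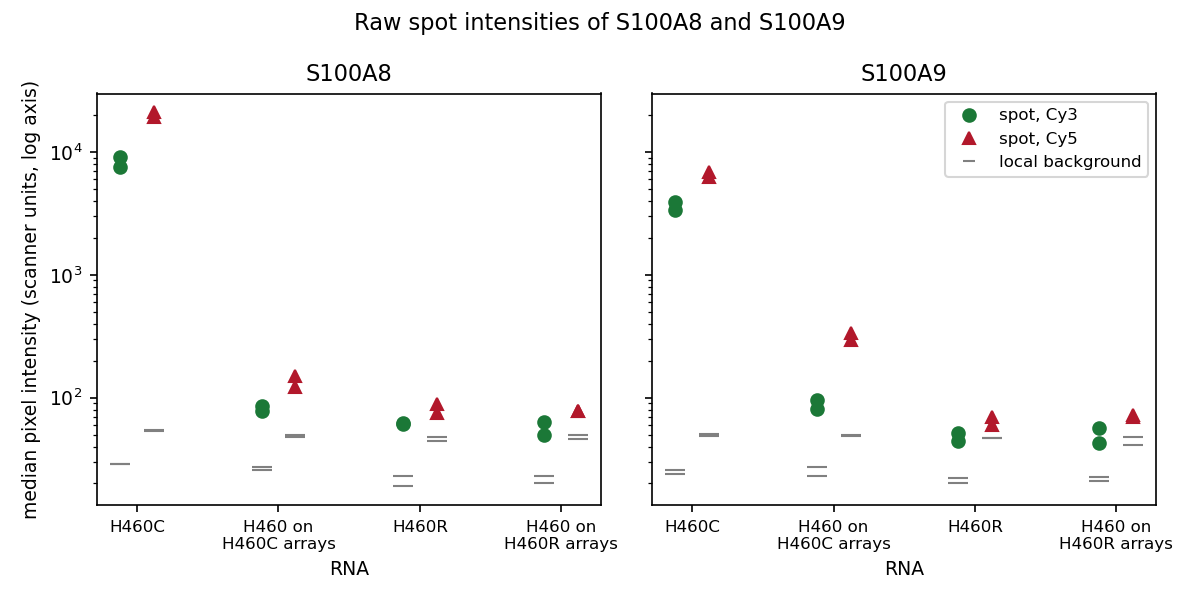
Median pixel intensity (scanner units, log axis) of the S100A8 and S100A9 spots for each RNA on each array, with dots for Cy3, triangles for Cy5 and grey dashes for the local background. H460C lies between 3385 and 21084, while H460R lies between 44 and 88, close to the background.

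The log2 ratio of S100A8 in H460C was 6.29 with H460C in Cy3 and 6.07 and 6.33 with H460C in Cy5. The Cy3 array of replicate 1 had its spot marked as an outlier, so that replicate rests on 1 array. The mean was 6.19, a 73.2-fold difference. In H460R the 4 ratios were 0.23 and 0.083 in Cy3 and 0.087 and -0.025 in Cy5 (mean 0.093 ± 0.090). Neither H460R nor the H460 beside it was well above background on any of these 4 arrays, so no fold is given for H460R. In the authors' processed table, S100A8 ran from 5.62 to 5.97 in H460C, with 5.86 on the array left out here, and from -0.010 to 0.21 in H460R.

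The log2 ratio of S100A9 in H460C was 3.86 and 3.89 with H460C in Cy3 and 4.63 and 4.48 with H460C in Cy5 (mean 4.21, 18.6-fold). The ratios in Cy5 were higher than those in Cy3 by more than the gap between replicates. In H460R they were -0.22 and -0.0016 in Cy3 and 0.080 and -0.17 in Cy5 (mean -0.076 ± 0.010), with both RNAs not well above background on any array. In the authors' processed table the ranges were 3.63 to 4.24 in H460C and -0.21 to 0.070 in H460R. The size of both ratios depended on the treatment of the dim H460 channel. The deposited Feature Extraction ratios, which subtract the background, gave means of 7.65 for S100A8 and 5.06 for S100A9.

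For both genes H460 was well above background on 4 of 4 H460C arrays and on 0 of 4 H460R arrays, although the labels name the same H460 RNA. Among the 15 tested probes with a log2 ratio above 3 in H460C whose H460 signal was not well above background on any H460R array, 7 (46.7%) had H460 well above background on all H460C arrays. The share was 1.98% (2 of 101) among such probes with a ratio from 1 to 3 and 4.18% (30 of 717) at a ratio of at most 1. S100A8 and S100A9 themselves meet the conditions of the group above 3. The part of signal passing between the channels in these values was not tested.

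S100A8 and S100A9 were called higher in H460C by Rank Products (FDR 0.05), 2 of the 10 members, where 0.557% of the 20295 gene names tested were called higher. No member was called lower, where 0.542% were. In H460R, 0 members were called by Rank Products, where 0.493% of genes were called higher and 0.473% lower. At an unadjusted Rank Products p under 0.05 the count in H460R was 2 higher and 1 lower, where 9.34% and 9.2% of all genes were, and in H460C 4 higher and 1 lower, where 9.58% and 9.51% were. Limma against 0 called 4 higher and 2 lower in H460R, where 36.8% and 32.2% of all genes were, and 8 higher and 1 lower in H460C, where 42.3% and 41% were. All 10 genes passed the filter on dim probes, S100A8, S100A9 and S100A14 only through H460C. Since the genes were chosen on these contrasts, nothing is read from these counts.

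**Figure D2:**
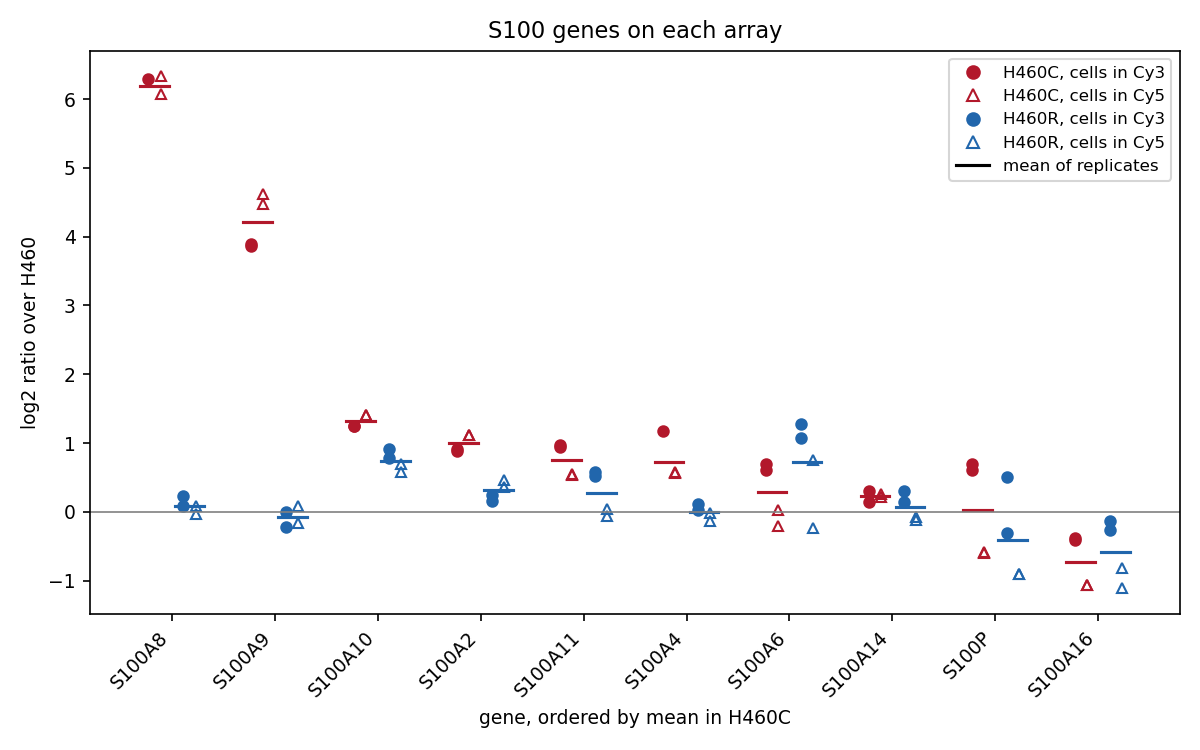
Log2 ratio over H460 (y axis) of each S100 gene on each array, with H460C in red and H460R in blue, filled dots for the studied cells in Cy3, open triangles in Cy5 and lines for the mean of replicates. S100A8 and S100A9 have means of 6.19 and 4.21 in H460C, and the other members lie between -0.73 and 1.33.

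S100A10, or p11, does not bind calcium and pairs with annexin A2 at the membrane. Its log2 ratios in H460C were 1.25 and 1.24 in Cy3 and 1.42 and 1.40 in Cy5 (mean 1.33, 2.51-fold). In H460R they were 0.78 and 0.92 in Cy3 and 0.58 and 0.69 in Cy5 (mean 0.74 ± 0.091, 1.67-fold). S100A10 was above H460 on all 8 arrays, and every H460C array was above every H460R array. The authors' table gave 1.18 to 1.24 and 0.54 to 0.79.

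S100A11, which binds annexin A1, was read by a pair of probes. The brighter one gave 0.98 and 0.95 in Cy3 and 0.53 and 0.56 in Cy5 for H460C (mean 0.75). For H460R it gave 0.52 and 0.58 in Cy3 and 0.043 and -0.061 in Cy5 (mean 0.27 ± 0.015). The other probe had means of 0.84 in H460C and 0.32 ± 0.031 in H460R, so the probes ran together in both populations. Both read lower with the studied cells in Cy5, and in H460R the brighter probe was near 0 in that dye. The authors' table gave means of 0.66 and 0.79 for the probes in H460C and 0.20 and 0.25 in H460R.

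S100A2, an S100 protein of epithelial nuclei that binds p53, had log2 ratios in H460C of 0.88 and 0.91 in Cy3 and 1.12 and 1.11 in Cy5 (mean 1.01, 2.01-fold). In H460R they were 0.25 and 0.16 in Cy3 and 0.37 and 0.47 in Cy5 (mean 0.31 ± 0.0016). Every array was above 0 and the populations did not overlap. The authors' table gave 0.81 to 1.05 and 0.090 to 0.44.

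S100A4, known for its binding to nonmuscle myosin and its link with cell motility, gave 1.18 in Cy3 and 0.59 and 0.56 in Cy5 in H460C (mean 0.72). Replicate 2 rests on its Cy5 array, since the other spot was marked as an outlier. The H460C channel was saturated on both Cy5 arrays, where the ratio is therefore a lower bound, and so is the mean (at least 1.65-fold). In H460R the ratios were 0.033 and 0.12 in Cy3 and -0.13 and -0.017 in Cy5 (mean 0.00069 ± 0.073), on either side of 0. The authors' table gave means of 0.80 and -0.085, with 1.28 on the array left out here.

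S100A6, or calcyclin, and S100P, which binds ezrin and the receptor RAGE, were at the top of the intensity range. S100A6 was saturated in H460C on 4 arrays, in H460R on 2, and in H460 on 2 H460C arrays and 1 H460R array, and the same counts held for S100P. With H460C in Cy3 both RNAs were saturated, so those ratios carry no size and no fold is given for H460C. S100A6 gave 0.69 and 0.61 in Cy3 and -0.20 and 0.027 in Cy5 in H460C (mean 0.28). In H460R it gave 1.28 and 1.07 in Cy3 and 0.76 and -0.23 in Cy5 (mean 0.72 ± 0.42). The H460R arrays spread over more than the distance between the populations. S100P gave 0.69 and 0.61 in Cy3 and -0.58 and -0.59 in Cy5 in H460C (mean 0.034). In H460R it gave 0.50 and -0.31 in Cy3 and -0.90 and -0.90 in Cy5 (mean -0.40 ± 0.29). On the Cy5 arrays of H460C the saturated channel was that of H460C alone, so the ratio there is a lower bound, and no direction is read for S100P. The gap between the dyes was 1.24 in H460C and 1.00 in H460R, the widest of the 10 genes in each. The authors' table gave means for S100A6 of 0.29 and 0.67 and for S100P of 0.25 and -0.090, with all 4 H460C values of S100P at or above 0.010.

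S100A16 was the only member below 0 on every array of both populations. It is a broadly expressed S100 protein. Its log2 ratios were -0.41 and -0.38 in Cy3 and -1.07 and -1.06 in Cy5 in H460C (mean -0.73). In H460R they were -0.13 and -0.27 in Cy3 and -0.81 and -1.11 in Cy5 (mean -0.58 ± 0.15). The populations overlapped, and the dyes lay further apart than the populations. The authors' table gave means of -0.76 and -0.64.

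S100A14, an epithelial S100 protein, was near background. Its raw intensities were 74.5 and 86 in Cy3 and 111 and 112 in Cy5 for H460C, and the probe was well above background in H460C on 4 arrays and in no other channel. The log2 ratios in H460C were 0.30 and 0.14 in Cy3 and 0.21 and 0.26 in Cy5, at least 1.15-fold, since the H460 level is only bounded by the lowest signal well above background. In H460R they were 0.15 and 0.30 in Cy3 and -0.11 and -0.073 in Cy5, and no fold is given there. The authors' table gave means of 0.19 and 0.058, and the deposited Feature Extraction ratios, which subtract the background, gave a mean of 1.38 in H460C.

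**Figure D3:**
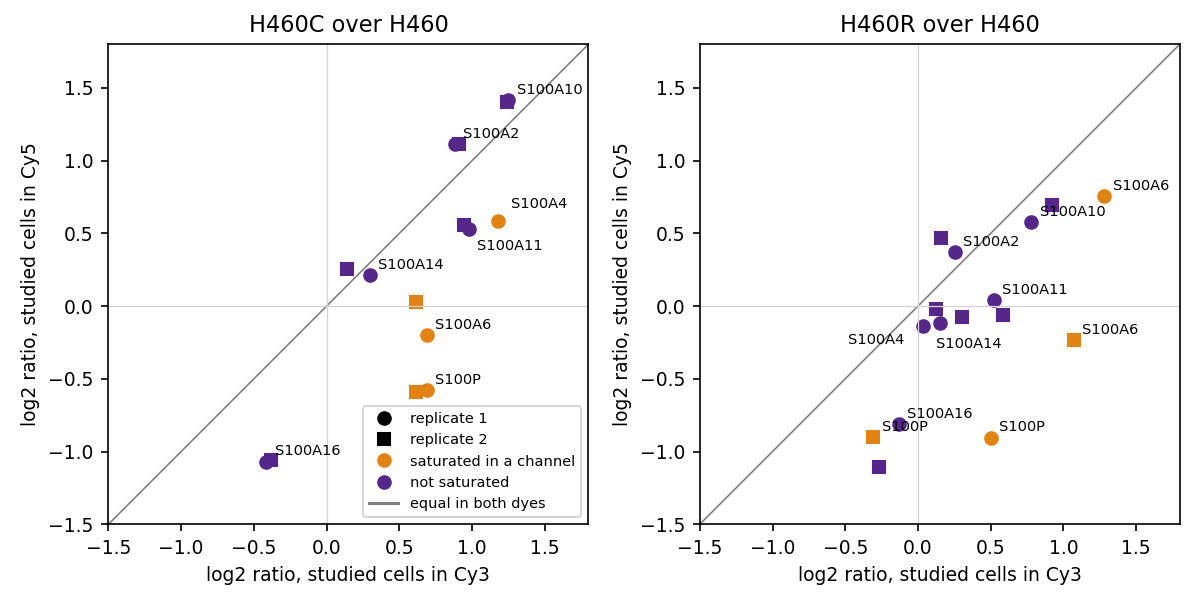
Log2 ratio over H460 with the studied cells in Cy5 (y axis) against the same replicate with them in Cy3 (x axis) for the members other than S100A8 and S100A9, with orange for pairs saturated in a channel. S100P lies furthest from the line of equal ratios, by 1.24 in H460C on average, and the means of S100A10 and S100A2 differ by at most 0.22 between the dyes.

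Over the 10 genes, the median log2 ratio was 0.74 in H460C and 0.079 in H460R, beside medians of 0.0021 and 0.012 over all 20295 gene names tested. The order in H460C ran S100A8, S100A9, S100A10, S100A2, S100A11, S100A4, S100A6, S100A14, S100P and S100A16. The arrays of S100A8 and of S100A9 overlapped with no other member, and those of S100A10 lay above those of S100A2. From S100A2 to S100A16 the arrays of each gene overlapped with those of its neighbour in this order. In H460R the order ran S100A10, S100A6, S100A2, S100A11, S100A8, S100A14, S100A4, S100A9, S100P and S100A16. There every S100A10 array lay above every S100A2 array, S100A6 spread across both, and from S100A2 down each gene overlapped with the next. The places of S100A8, S100A9 and S100A14 in H460R carry no information, since neither RNA was well above background there, nor do those of the saturated S100A6 and S100P in either population, and the H460R median lies between S100A8 and S100A14.

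S100A10 and S100A2 were thus above H460 on all arrays of both populations and S100A16 below it on all. Set side by side, 8 of 10 members had a higher mean ratio in H460C than in H460R, where 51.7% of all genes tested had. S100A6 and S100A16 were the others. The 8 include S100A14, which was not well above background on the H460R arrays, and the saturated S100P, so nothing is read from the count. Both populations were read against the same H460 RNA. In limma's comparison of H460C with H460R (adjusted p 0.05), S100A2, S100A4, S100A8, S100A9, S100A10, S100A11 and S100P were called higher in H460C, 7 members, and 0 were called higher in H460R. Over all genes 64.2% were called in that comparison, 32.8% higher in H460C and 31.4% higher in H460R, and the spread behind it is that between hybridizations for H460C. No reading is made of these calls for the members.

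The genes whose ratios lay nearest to those of S100A8 over the 7 arrays that measured it were NPTX1, a secreted neuronal pentraxin, SPINK6, a serine protease inhibitor of skin, and S100A9, at Euclidean distances of 3.07, 3.11 and 3.40 on the log2 scale among 11584 named genes. For S100A9 over 8 arrays they were AQP3, a water and glycerol channel of epithelia (0.79), FGFBP1, a carrier of fibroblast growth factors (0.82), and SPINK6 (0.86), among 11411. In H460C, the mean log2 ratios of AQP3, FGFBP1 and SPINK6 were 3.90, 4.01 and 4.50, and in H460R -0.16, -0.028 and 0.048. The 3 genes nearest to S100A10 were PSMA3 at 0.32, TEDC2 at 0.38 and FANCM at 0.40. The distances were wider for S100A8, whose mean of 6.19 in H460C lay above those of NPTX1 (4.89), SPINK6 (4.50) and S100A9 (4.21). They rest on the ratios by which the members were chosen, and nothing more is read from them.

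Of the 10 members, 9 lie on chromosome 1, where 16 S100A genes are listed, and S100P lies on chromosome 4. Within the chromosome 1 group, S100A9, S100A12 and S100A8 follow each other with no other protein-coding gene between them, and so do the genes from S100A8 to S100A1. Of the 10 other S100 genes, all on the array, 2 passed the filter. S100A12, between the calprotectin genes, had a log2 ratio of 0.25 in H460C and -0.15 ± 0.048 in H460R. It was well above background in H460C on 3 of 4 arrays, in H460R on 1, and in H460 on no H460C array and 2 H460R arrays. S100A7 or psoriasin, further along, had 0.27 and 0.12 ± 0.023 and was well above background in H460C on 3 arrays and in no other channel. S100A1, S100A7A, S100B, S100G and S100Z were not well above background in any channel, and S100A5 was on 1 H460C array and 2 H460R arrays for the studied cells and likewise for H460. With H460 not well above background, only a lower bound can be given for S100A12 and S100A7 in H460C (at least 1.16-fold and 1.14-fold). The deposited Feature Extraction ratios gave means of 1.77 and 1.92 for them, beside 7.65 for S100A8 and 5.06 for S100A9.

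S100A3 had log2 ratios of 0.46 in H460C and 0.40 ± 0.13 in H460R, which did not differ by limma (difference 0.069, SE 0.073, adjusted p = 0.448). S100A13 had -0.48 in H460C and -0.080 ± 0.097 in H460R, a difference of -0.41 (SE 0.062, adjusted p = 0.00259), with 1 array of H460C and 2 of H460R saturated. Its arrays overlapped, from -0.90 to -0.058 in H460C and from -0.39 to 0.20 in H460R. The gap between its dyes was 0.83 in H460C and 0.45 in H460R. Neither was called over H460 by Rank Products. At an unadjusted p under 0.05 the count was 0 in both populations, and limma against 0 called both in H460C and S100A3 in H460R. Over all genes, limma called 42.3% higher and 41% lower in H460C and 36.8% higher in H460R. Of the genes that fuse an S100 domain to a repeat, filaggrin (FLG) and CRNN were found under a current symbol, and neither passed the filter. Of 13 cornified envelope genes found from the same region, 6 passed it and none was called by Rank Products in H460C or H460R, also at an unadjusted p. Their log2 ratios in H460C ran from -0.26 to 0.10, with -0.13 for LORICRIN (loricrin), -0.21 for SPRR1A, -0.23 for LCE3E and -0.26 for CRCT1, the lowest. By limma, 5 of these 6 were called against 0 in H460C, 1 higher and 4 lower, where 42.3% and 41% of all genes were. The 1 called higher passed the filter only through H460C, and nothing is read from this count.

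**Figure D4:**
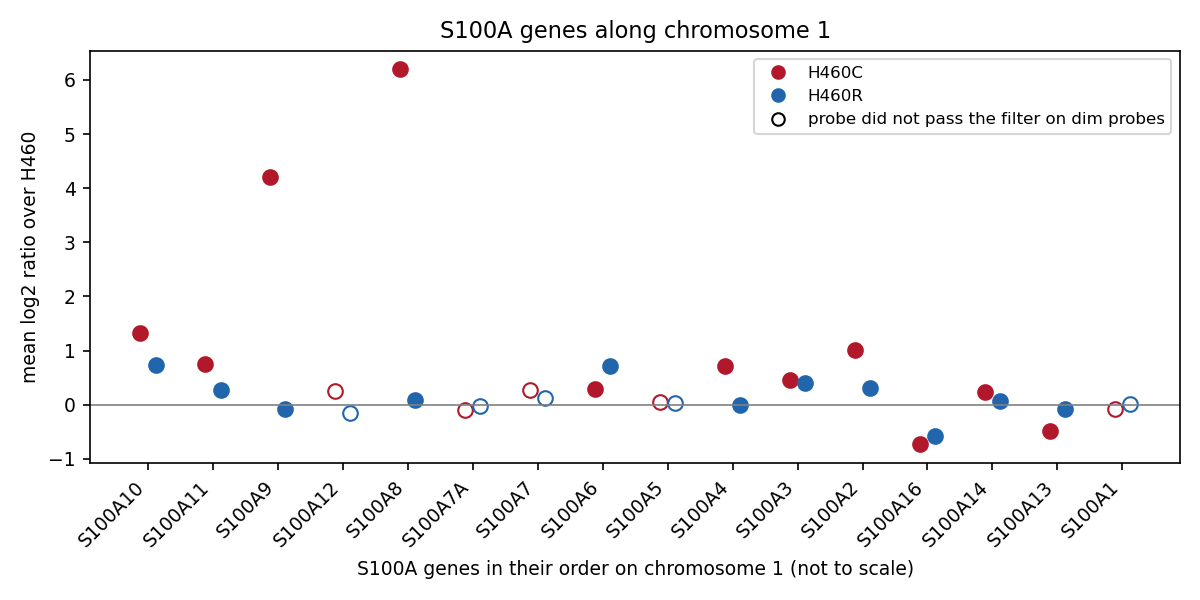
Mean log2 ratio over H460 (y axis) of the 16 S100A genes in their order on chromosome 1 (x axis, not to scale), red for H460C and blue for H460R, with open dots for probes that did not pass the filter on dim probes. S100A9 at 4.21 and S100A8 at 6.19 stand on either side of S100A12 at 0.25, whose H460 channel was not well above background on these arrays (at least 1.16-fold).

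The members' promoters differed in base composition. The 250 bases before the start of S100A10 and of S100A6 held 24 CpG each, those of S100A11 held 15, and those of S100A8, S100A9 and S100A16 held 2, 4 and 1, beside a median of 11 over all promoters. GC content ran from 51.2% in S100A8 to 71.2% in S100A10, beside a median of 58%. A TATA box was found in 3 members (S100A4, S100A9 and S100P), a GC box in 4, and AP-1, C/EBP and NF-kB matches in 1 each (S100A2, S100A11 and S100A14).

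Among 7 receptors named for S100 proteins, 6 passed the filter and 0 were called over H460 by Rank Products. At an unadjusted p under 0.05, H460C had 1 higher and 1 lower and H460R had 2 higher. Over all genes, 9.2% to 9.58% were called so in each direction. Limma against 0 called 3 higher and 3 lower in H460C, where 42.3% and 41% of all genes were. In H460R it called 4 higher and 1 lower, where 36.8% and 32.2% were. CD36, a scavenger receptor that takes up lipids bound to S100A8/A9, had a log2 ratio of 1.74 in H460C and 0.93 ± 0.35 in H460R (difference 0.82, SE 0.16, limma adjusted p = 0.00595). For CD36, H460 was well above background on 1 H460C array and 3 H460R arrays. The deposited Feature Extraction means were 3.35 in H460C and 2.51 in H460R, so these sizes depended on the treatment of the dim channel. ALCAM, an adhesion molecule, had -0.25 in H460C and 1.33 ± 0.020 in H460R (difference -1.57, SE 0.047, adjusted p = 1.15e-05), and its arrays did not overlap. NPTN (neuroplastin), a receptor for S100A8, had -1.02 and -0.28 ± 0.081 (difference -0.74, adjusted p = 0.000217). MCAM had -0.31 and 0.19 ± 0.10 (adjusted p = 0.00124), and BSG (basigin) had 0.42 and 0.27 ± 0.13 (adjusted p = 0.129). The MCAM arrays overlapped, from -0.51 to -0.11 in H460C and from -0.25 to 0.50 in H460R. BSG changed sign with the dye in both populations. TLR4 did not pass the filter. The median of the 6 was 0.016 in H460C and 0.23 in H460R.

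All 14 annexin and cytoskeletal partners passed the filter and 0 were called over H460 by Rank Products. At an unadjusted p under 0.05, 1 was higher and 1 lower in H460C and 2 were lower in H460R. Over all genes, 9.2% to 9.58% were called so in each direction. Limma against 0 called 8 higher and 5 lower in H460C, where 42.3% and 41% of all genes were. In H460R it called 9 higher and 4 lower, where 36.8% and 32.2% were. Between the populations, limma called 5 higher in H460C and 3 lower, where 32.8% and 31.4% of all genes were. CACYBP, the calcyclin-binding protein that S100A6 binds, had 1.05 in H460C and 0.28 ± 0.11 in H460R (difference 0.78, SE 0.067, adjusted p = 0.0003). EZR (ezrin), a partner of S100P, had 0.21 in H460C and -1.16 ± 0.035 in H460R (difference 1.37, SE 0.056, adjusted p = 2.68e-05). AHNAK, a large scaffold bound by S100A10, had -0.16 and -0.72 ± 0.13 (adjusted p = 0.00137). S100PBP, the S100P-binding protein, had 0.48 and 0.19 ± 0.061 (adjusted p = 0.00479), ANXA11 -0.72 and -0.23 ± 0.044 (adjusted p = 0.000606) and MYH10, a nonmuscle myosin, 0.53 and 0.41 ± 0.0053 (adjusted p = 0.0692). ANXA2, the partner of S100A10, was named after its values were seen. It had -0.40 in H460C, over 3 arrays of which 1 was above 0, and 0.49 ± 0.023 in H460R. ANXA2 was saturated in H460C and in H460 on 2 H460C arrays each, in H460R on 1 array and in the H460 beside it on 2, and its mean in the authors' table was -0.038 in H460C, so no direction is read for H460C.

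Of 28 other EF-hand genes found on the array, 24 passed the filter and 1 was called, CALB2 (calretinin), higher in H460C, where 0.557% of all genes were. Its log2 ratio was 3.10 in H460C (Rank Products FDR 0.0156) and 0.45 ± 0.017 in H460R, where H460 was not well above background on any array (at least 1.36-fold), a difference of 2.65 (SE 0.060, limma adjusted p = 6.09e-06). For CALB2, H460 was well above background on 2 of 4 H460C arrays, and the deposited Feature Extraction mean in H460C was 4.93. CALB2 passed the filter only through H460C, where it was high, so nothing is read from its FDR and adjusted p. None was called in H460R, where the unadjusted p gave 3 higher and 2 lower, beside 9.34% and 9.2% of all genes. There limma against 0 gave 12 higher and 6 lower, beside 36.8% and 32.2% of all genes. EFHD2 had -1.02 in H460C and 0.061 ± 0.13 in H460R (adjusted p = 0.00013), and CALML4 0.71 and -0.43 ± 0.095 (adjusted p = 6.43e-05). RCN2 and SDF4, EF-hand proteins of the secretory pathway, had 0.021 and -0.11 in H460C and 0.83 ± 0.10 and 0.80 ± 0.12 in H460R, and both were higher in H460R (adjusted p = 0.000218 and 0.000188). PEF1 had -0.70 and -0.75 ± 0.12 (adjusted p = 0.495). The median of the 24 was -0.022 in H460C and 0.21 in H460R.

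Of 14 transcription factors and cytokines known to act on S100A8 and S100A9, 10 passed the filter and 2 were called higher in H460C, where 0.557% of all genes were. IL1A and IL1B encode interleukin-1, which induces both genes in epithelial cells. IL1B had log2 ratios of 4.46 to 4.60 over the H460C arrays (mean 4.54, Rank Products FDR 0.000336) and a mean of 1.15 ± 0.12 in H460R. IL1A had 3.19 to 3.51 (mean 3.35, FDR 0.0094) and -0.16 ± 0.0076. Both were higher in H460C than in H460R (limma differences 3.39 and 3.51, adjusted p = 5.35e-06 and 3.35e-06). IL6 ran the other way, with 0.27 in H460C and 1.29 ± 0.069 in H460R (adjusted p = 6.1e-05), and was saturated on 2 arrays of each population. CEBPD had 0.64 and -0.46 ± 0.032 (adjusted p = 0.000417) and HIF1A -1.19 and -0.50 ± 0.029 (adjusted p = 0.000148). CEBPD in H460C rests on 3 arrays from 0.10 to 0.88, with a mean of 0.37 in the authors' table. HIF1A ran from -1.75 to -0.63 over the H460C arrays and from -1.08 to 0.11 over those of H460R, so they overlapped. Its gap between the dyes was 1.09 in H460C and 1.07 in H460R. None was called over H460 in H460R, where the unadjusted p gave 2 higher and 1 lower, beside 9.34% and 9.2% of all genes. There limma against 0 gave 3 higher and 5 lower, beside 36.8% and 32.2% of all genes. SPI1, IL10, IL22 and CSF2 were not well above background in any channel.

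**Figure D5:**
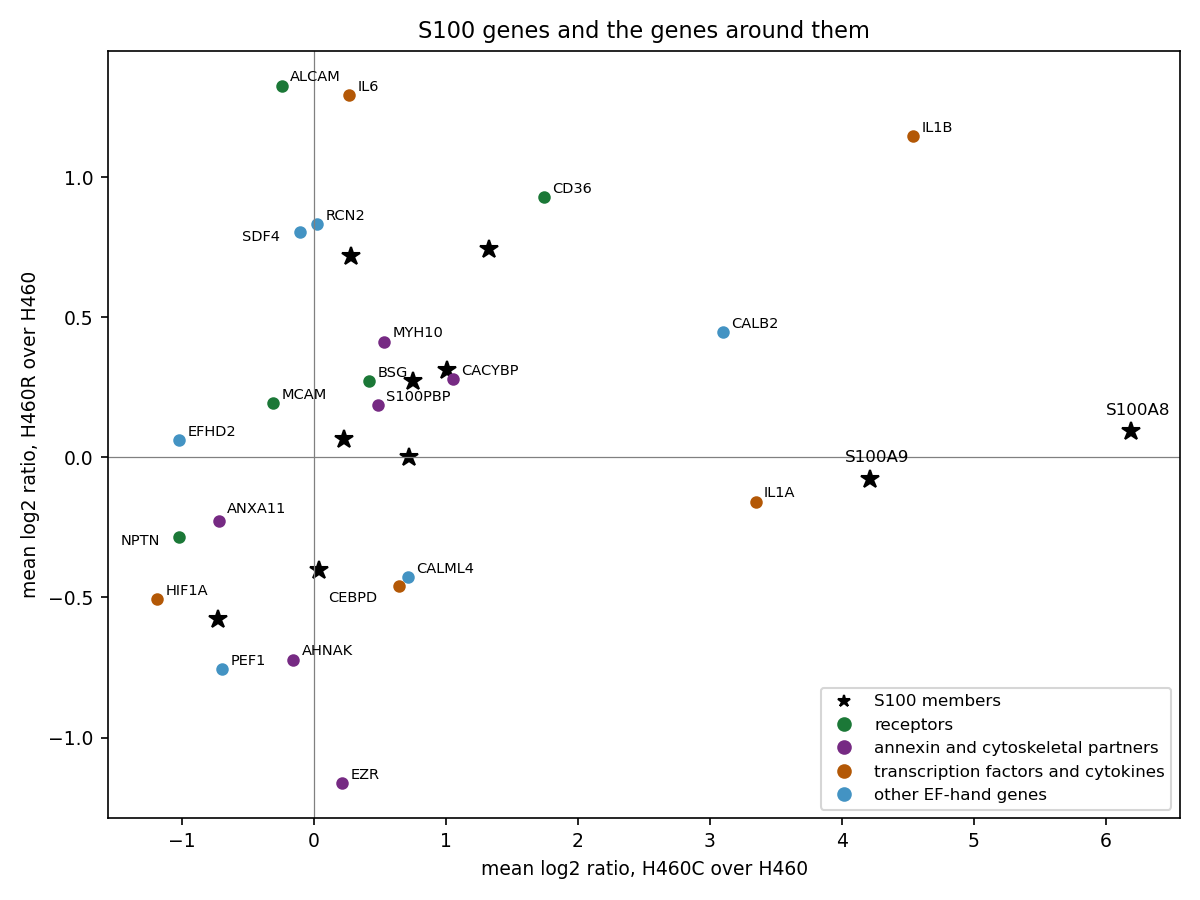
Mean log2 ratio in H460R (y axis) against H460C (x axis) of the S100 members (stars) and of the named receptors, partners, other EF-hand genes, transcription factors and cytokines (dots). IL1B at 4.54, IL1A at 3.35 and CALB2 at 3.10 lie to the right with S100A9 and S100A8, and ALCAM at 1.33 and IL6 at 1.29 lie highest in H460R.

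S100A8 and S100A9 also mark myeloid cells, and 12 other myeloid markers were read beside them. Of these, PTPRC (CD45), LYZ, FCGR3B, MPO, ELANE and SPI1 were not well above background in any channel. ITGAM was well above background in H460C on 3 arrays and in H460R on 2, and in H460 on 1 H460C array and 2 H460R arrays. CSF3R was so in H460C on 1 array, in H460R on 2 and in H460 on 2 H460R arrays. Neither passed the filter. The 4 that passed the filter were CD14, CD68, TYROBP and FCER1G, with log2 ratios in H460C of -0.999, -0.47, -0.034 and -0.16 and in H460R of -0.81 ± 0.13, 0.034 ± 0.19, -0.15 ± 0.11 and -0.27 ± 0.034. None was called by Rank Products. At an unadjusted p under 0.05, 1 was lower in each population (CD14), where 9.51% of all genes were in H460C and 9.2% in H460R. Limma against 0 called 3 lower in H460C and 2 in H460R, where 41% and 32.2% of all genes were. The summed intensity of the 12 markers was 2163 to 2418 in H460C, 1582 to 4006 in H460R and 1971 to 4394 in H460, so the ranges overlapped.

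The epithelial markers split. EPCAM, an adhesion molecule, had 1.57 in H460C and -0.088 ± 0.037 in H460R (difference 1.66, adjusted p = 1.12e-05), and CLDN4, a tight-junction claudin, had 1.20 and -0.51 ± 0.13 (difference 1.71, adjusted p = 2.95e-05). For EPCAM, H460 was well above background on 3 of 4 H460C arrays, and the deposited Feature Extraction mean in H460C was 3.03. EPCAM passed the filter only through H460C, where it was high, so nothing is read from its adjusted p. CDH1 (E-cadherin) was well above background in H460C on 4 arrays and in no other channel, at least 1.75-fold higher than in H460. KRT19 was saturated in H460 on every H460C array and in H460C on 2 of them, so no fold is given. KRT18 had 0.13 and -0.71 ± 0.17, and CLDN7 had 0.083 and -0.51 ± 0.047. KRT18 was saturated in H460C and in the H460 beside it on 2 arrays each, and in H460R and the H460 beside it on 1 each. Its H460R value rests on 3 arrays. None of the 7 was called over H460 by Rank Products. At an unadjusted p under 0.05, 3 were higher and 1 lower in H460C and 2 lower in H460R. Over all genes, 9.2% to 9.58% were called so in each direction. Limma against 0 called 5 higher and 1 lower in H460C, where 42.3% and 41% of all genes were. In H460R it called 4 lower, where 32.2% were. Between the populations, limma called 6 higher in H460C and 1 lower, where 32.8% and 31.4% of all genes were. EPCAM and CDH1 passed the filter only through H460C, so nothing is read from this count. The summed intensity of the 8 markers was 100457 to 119661 in H460C, 62104 to 130748 in H460R and 94365 to 206498 in H460. These sums include the saturated KRT18 and KRT19. The part of the cells' epithelial state in the S100 ratios was not tested.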

How the data were processed

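Total RNA of H460, H460C and H460R cells was hybridized on 8 dual-color arrays, which the authors scanned and read with Feature Extraction (version 10.1.1.1). The deposited median spot and local background intensities carry no normalization. The deposited log10 ratios of red over green were made by the authors with the software's background subtraction and dye normalization, and on 1 array they had lost the decimal point, so that column was taken as a score and divided by 10 to the power of 9. The authors' processed table gives log2 values of each population against H460, with a background correction and normalization not given in the sources used here. Both served as alternatives. Outlier, saturation and detection marks were taken as deposited. The number of arrays limits the precision.

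Background was corrected with normexp (limma 3.58.1 in R 4.3.3, offset 50), followed by loess within each array. Spots whose local background exceeded 2 times the array median (at most 17 on an array) were left out, because on H460C replicate 1 (Cy5) 7 such spots moved the fitted background mean of the red channel from 5.62 to -339.3. This choice was made after seeing the data. Outlier and control spots were left out, the 43376 spots were averaged into 41000 probes, and 26046 had at least 0.5 of their spots well above background on all arrays in H460C, in H460R or in H460, and of these 26014 had a ratio for each replicate. Dye-swapped arrays were averaged, over the available array where 1 was missing. A gene was read at its brightest probe. Rank Products used the exact distribution for 2 ratios, with Benjamini-Hochberg adjustment in each direction (FDR 0.05). Testing against 0 leaves out how H460 RNA itself varies. The populations were compared with each other by limma (two-sided, 2 residual and 3.44 prior degrees of freedom). H460C replicates entered as 2 ratios, so Rank Products and limma values for H460C cover hybridization and not the spread between cultures, and the labels do not say that replicates came from separate cultures. Tests were checked on simulated data. Of 25868 probes with a RefSeq accession, 23958 carry a current symbol. Promoters came from RefSeq (GRCh38.p14), first start of each gene, with all 10 members matched.

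The members and the 9 gene lists were chosen with earlier results of these data known. In each list the named genes were the 4 with the largest absolute ratio in H460C, the 2 with the largest in H460R and any called, except for the other S100 genes, which were all named, and the nearest genes were the 3 closest to each of the 3 members with the largest ratio in H460C. KRT7, KRT8, TLR4, ANXA2, ITGAM, CSF3R and the undetected markers were named beside them after their values were seen. Alternatives were other background corrections, normalizations, filters, dyes, tests and left-out replicates.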

Additional observations from a re-analysis of the deposited data

How the results depend on the processing

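Of 428 member values over the alternatives, 413 kept their sign and no called one reversed. S100A8 ran from 5.60 to 7.66 in H460C and S100A9 from 3.87 to 5.06, S100A10 from 1.21 to 1.54 and S100A16 from -1.06 to -0.40, whereas S100P ran from -0.58 to 0.65, S100A6 from -0.088 to 0.65 and S100A14 from 0.046 to 1.38, the highest being the Feature Extraction ratio. Members called in H460C numbered 0 with the stricter filter on dim probes, which does not test S100A8 or S100A9, 1 with the studied cells in Cy3 only, where S100A8 has no value for replicate 1, and 9 with limma in place of Rank Products. Limma called 6 members in H460R. Over all genes, limma called 16914 in H460C and 14005 in H460R, against 223 and 196 by Rank Products, and no filter on dim probes gave 337 in H460C. With a minimum log2 difference of 1, 993 genes and 2 members differed between H460C and H460R, against 13022 and 7. The causes were not tested. The alternatives with all spots in the normexp fit and with outlier spots kept, were chosen after seeing the data, and both left the 2 members called in H460C.

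Replicate numbers did not pair the populations (correlation of deviations 0.050 across 26014 probes), and the replicate block gave 13141 genes and 8 members. Without one replicate the genes that differed numbered 10061 to 14073 and the members 6 to 10, and with the H460C replicates averaged 10056 and 6. Rank Products could not be run without a replicate, since 1 ratio is left.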
